A study of Mus musculus with 12 samples.

Results

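The genes described here encode the integrin α subunits that bind extracellular matrix and cell-surface counter-receptors together with β1 (Itga1, Itga2, Itga3, Itga4, Itga5, Itga6, Itga9 and Itga11), and β4 (Itgb4), which pairs with α6 alone. They were chosen by gene symbol, and all 9 were found among the 45859 genes measured. RNA came from mouse lens cells (LCs) left on the lens capsule when the fiber cells are removed in a model of cataract surgery, and expression was measured by RNA sequencing in 12 libraries, 3 in each of 4 groups. WT LCs were from C57BL/6 mice, and β8ITG-cKO LCs were from mice of a mixed C57BL/6 and 129S1/Sv background in which a floxed exon of Itgb8, the β8 integrin gene, is deleted by MLR10-Cre, a Cre that acts in the lens. Both genotypes were adults of 2 months, taken either at 0 h, directly after surgery, or 24 h post cataract surgery (PCS). All animals were operated, each library pooled the capsules of several lenses, and no group carried the Cre alone, so the deletion cannot be told apart from strain or from Cre itself.

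An integrin is a dimer of an α and a β subunit that ties the cytoskeleton to matrix outside the cell, and the α subunit largely sets what is bound. In the dimers with β1, α1, α2 and α11 bind collagens, α3 and α6 bind laminins, α5 binds fibronectin, and α4 and α9 bind fibronectin splice forms, VCAM-1, tenascin or osteopontin. The α6β4 dimer holds epithelia to laminin in hemidesmosomes through plectin. Lens epithelium sits on a capsule rich in laminin and collagen IV, and when it is injured it lays down fibronectin and other wound matrix.

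The values are FPKM, mapped fragments scaled to transcript length and to the size of the library, a level per length that can be compared between genes. Differences are on the log2(FPKM + 1) scale, which understates the change of genes with low FPKM, and come from limma-trend over all genes averaging 0.5 FPKM or more in the libraries fitted, with Benjamini-Hochberg adjustment. A gene is said to rise, fall or change where its adjusted p did not exceed 0.05. The size criteria of the study's methods are given beside it, and ask for means that differ more than 2-fold and by more than 2 FPKM, the higher of them being 2 FPKM or more. A bulk library cannot tell fewer cells of a type from less RNA per cell.

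The depth of the libraries in reads is unknown. The most common ratio of low FPKM between each library and WT 0 h replicate 1 gave relative depths of 0.865 to 1.08. This is a rough guide and does not show that depth was even. Itgb8, given as a single value for the whole gene, was at 7.26 to 10.8 FPKM in WT 0 h, 8.38 to 9.58 in WT 24 h, 4.58 to 7.31 in β8ITG-cKO 0 h and 9.28 to 11.8 FPKM in β8ITG-cKO 24 h libraries. The deletion removes part of the gene, so this value does not check the labels. Between 12015 and 13510 genes reached 1 FPKM in a library. Markers of lens epithelium (Foxe3, Cdh1, Pitx3 and Pax6) were present in every group, with summed levels of 254 to 260 FPKM in WT 0 h, 200 to 223 in WT 24 h, 332 to 390 in β8ITG-cKO 0 h and 143 to 171 in β8ITG-cKO 24 h libraries. The 5 lens fiber markers summed to 3591 to 5490 FPKM at 0 h and 639 to 1288 FPKM at 24 h. The 8 retina markers reached 1069 FPKM in WT 0 h replicate 2 and 781 to 916 FPKM in the β8ITG-cKO 24 h libraries, against 67.8 to 318 FPKM in the other 8 libraries. The 10 leukocyte markers summed to 6.51 to 13.4 FPKM at 0 h and to 46.6 to 105 FPKM at 24 h. The median gene lay 0.16 higher at 24 h in WT and 0.23 higher in β8ITG-cKO on the log2 scale. After the libraries were rescaled to the same median these shifts were -0.05 and -0.00, the calls over all genes went from 3165 higher and 1335 lower to 2199 and 2447 in WT, and from 5394 and 1636 to 3217 and 3008 in β8ITG-cKO. Rescaled values are therefore given beside the changes with time of Itga6, Itga3, Itgb4, Itga5 and Itga4. The changes of other genes and the counts of the lists are given without rescaling.

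The 9 genes spanned a wide range of levels. Directly after surgery, in WT LCs at 0 h, the order of the mean levels was Itga6 at 57.8 FPKM, Itga3 at 23.7, Itga5 at 4.24, Itga9 at 0.796, Itga1 at 0.329, Itga2 at 0.260, Itgb4 at 0.241, Itga4 at 0.207 and Itga11 at 0.0936 FPKM. The first 5 of these neighbouring pairs, from Itga6 and Itga3 down to Itga1 and Itga2, had ranges over the 3 libraries that did not meet, and the last 3 overlapped. Only 472 of all genes had a higher mean than Itga6 in this group, and 1386 had a higher mean than Itga3. In WT LCs at 24 h, Itga6, Itga5 and Itga3 formed a top group with overlapping ranges, far above the next gene, Itga9, at 1.26 FPKM. In β8ITG-cKO LCs the order Itga6, Itga3, Itga5 held at 0 h and at 24 h, with no overlap between neighbours. The other 6 genes had group means of 1.26 FPKM or less in all 4 groups, and which of them came next after these 3 differed: Itga9 in WT at both times, Itga2 in β8ITG-cKO at 0 h and Itga4 in β8ITG-cKO at 24 h.

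**Figure D1:**
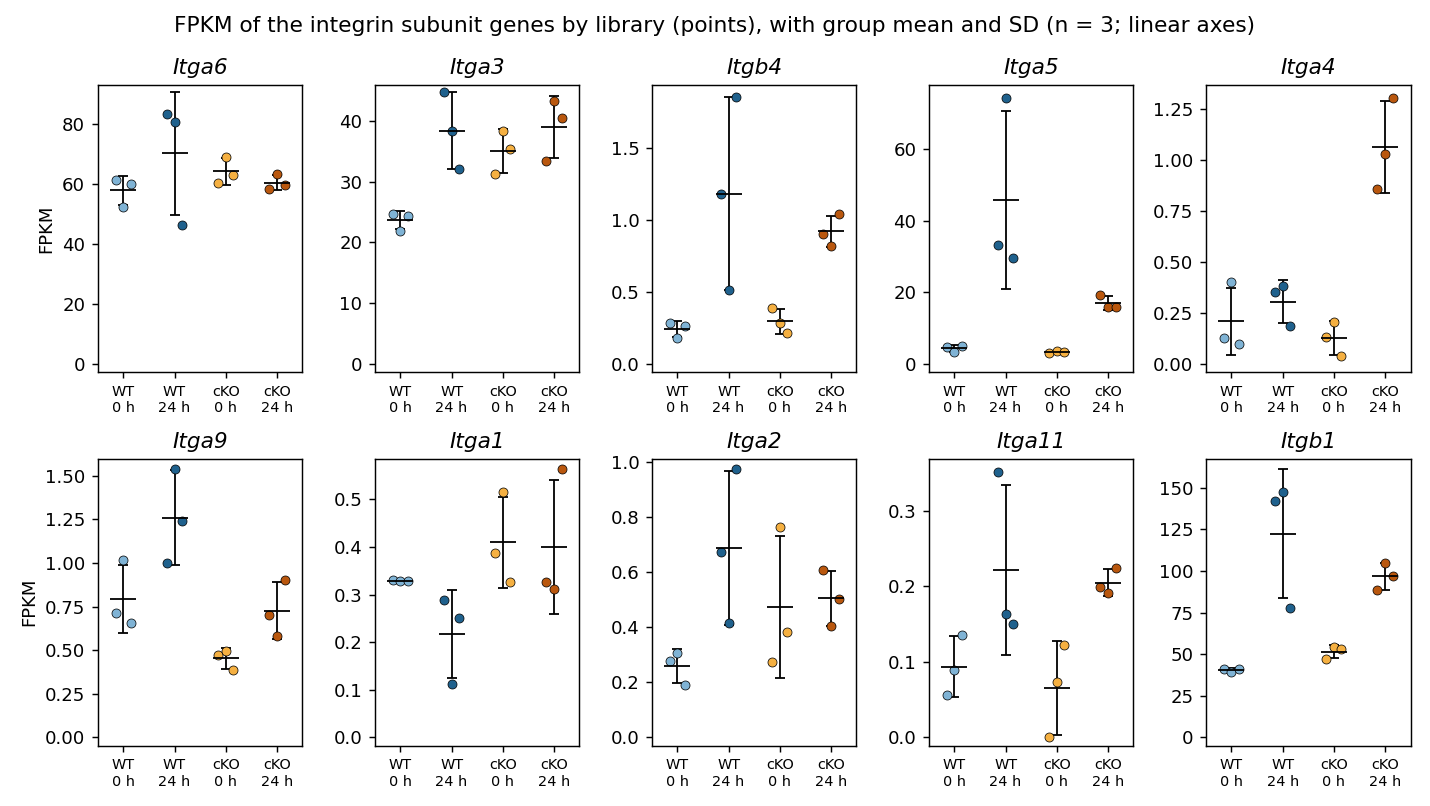
FPKM of the 9 genes and of Itgb1, the common β subunit of the α subunits among them, in each library (points). Horizontal bars give the group mean, with SD (n = 3), on linear axes that differ between panels. The label cKO stands for β8ITG-cKO. Itga5 lay higher at 24 h in both genotypes and Itga4 was above 0.8 FPKM only in the 3 β8ITG-cKO 24 h libraries.

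Among the laminin-binding subunits, Itga6 was the most abundant of the 9 genes in every group. It encodes α6, which pairs with β1 or β4 and lies on chromosome 2 (71786886 to 71858427 in the files, plus strand, mouse build mm10). Its levels were 61.3, 52.2 and 60.04 FPKM in WT 0 h, 83.3, 80.8 and 46.3 in WT 24 h, 60.4, 69.0 and 63.0 in β8ITG-cKO 0 h and 58.3, 63.2 and 59.8 FPKM in β8ITG-cKO 24 h libraries. All group ranges overlapped in the comparisons made, and WT 24 h replicate 3 lay below every other library. Itga6 did not pass the test with time in WT LCs, with a log2 difference of 0.23 (95% interval -0.31 to 0.77, adjusted p = 0.484), or in β8ITG-cKO LCs, with -0.08 (-0.30 to 0.13, adjusted p = 0.491). Both values moved with the scaling. After rescaling the difference was -0.03 in WT (adjusted p = 0.920) and -0.38 in β8ITG-cKO (adjusted p = 0.0178, lower at 24 h). Without WT 24 h replicate 3, the WT difference was 0.50 (adjusted p = 0.0355).

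Itga3, on chromosome 11 (95044475 to 95076811, minus strand), encodes α3, which pairs with β1 and anchors epithelial cells to laminin. Its levels were 24.7, 21.9 and 24.4 FPKM in WT 0 h, 44.8, 38.3 and 32.2 in WT 24 h, 31.2, 38.4 and 35.4 in β8ITG-cKO 0 h and 33.4, 43.3 and 40.5 FPKM in β8ITG-cKO 24 h libraries. The WT 0 h libraries were below all the other 9, which overlapped among themselves. Itga3 rose with time in WT LCs by 0.67 (standard error 0.16, adjusted p = 0.0170), a ratio of means of 1.62 that does not meet the size criteria. The rise was 0.41 after rescaling (adjusted p = 0.0745), and the adjusted p was 0.0587, 0.0579 and 0.0543 without WT 0 h replicate 1, WT 0 h replicate 2 and WT 24 h replicate 1. In β8ITG-cKO LCs the difference with time was 0.15 (95% interval -0.14 to 0.44, adjusted p = 0.363), or -0.14 after rescaling.

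The promoter windows of Itga3 and Itga5 are shown because these were the genes among the 9 that passed the test with time in WT LCs. The sequences are RefSeq's for GRCm38.p6, from 250 bases before to 50 bases after the annotated start, on the gene's strand, and 7 of the 9 genes had an entry, in 8 windows. Itga6 and Itgb4 had none. Capitals mark matches, on either strand, to the Smad-binding letters CAGAC and the GC box GGGCGG; for the AP-1 letters TGANTCA, the TEAD letters GGAATG and the TATA letters TATAAA, which were searched in the same way, the windows printed held no match. A second Itga3 window, inside the gene (chr11:95069149-95069448), is not shown. TGANTCA had a match in that window and in the Itga9 window (chr9:118711442-118711741), which also lies inside its gene.
Itga3, chr11:95076665-95076964, minus strand: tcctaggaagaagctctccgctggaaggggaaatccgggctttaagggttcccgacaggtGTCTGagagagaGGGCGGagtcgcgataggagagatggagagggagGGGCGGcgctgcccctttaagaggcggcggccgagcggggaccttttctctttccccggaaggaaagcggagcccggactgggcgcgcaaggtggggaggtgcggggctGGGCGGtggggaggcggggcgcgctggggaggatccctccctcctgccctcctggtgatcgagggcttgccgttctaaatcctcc
Itga5, chr15:103366742-103367041, minus strand: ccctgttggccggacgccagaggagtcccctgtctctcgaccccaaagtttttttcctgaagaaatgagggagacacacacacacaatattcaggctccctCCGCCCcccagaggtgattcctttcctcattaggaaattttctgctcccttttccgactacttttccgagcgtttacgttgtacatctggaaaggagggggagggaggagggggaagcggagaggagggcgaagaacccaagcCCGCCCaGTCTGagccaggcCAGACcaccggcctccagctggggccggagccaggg
The Itga3 window has 24 CpG pairs and a GC content of 66.7%, and the Itga5 window has 13 and 58.7%, against medians of 7 and 52.7% over all 32851 windows. CAGAC occurred in 49.6% of all windows, GGGCGG in 35.7%, TATAAA in 13.6%, GGAATG in 14.7% and TGANTCA in 7.81%. A match in such a window is a run of letters and was not tested as a binding site.

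Itgb4 encodes β4, the subunit that adds α6 to hemidesmosomes, and lies on chromosome 11 (115974709 to 116008412 in the GENCODE annotation of GRCm38, plus strand). Its levels were 0.284, 0.177 and 0.261 FPKM in WT 0 h, 1.18, 0.514 and 1.86 in WT 24 h, 0.389, 0.280 and 0.212 in β8ITG-cKO 0 h and 0.901, 0.822 and 1.04 FPKM in β8ITG-cKO 24 h libraries. Within each genotype the 24 h libraries were above the 0 h libraries, with no overlap. Itgb4 rose in β8ITG-cKO LCs by 0.57 (standard error 0.13, adjusted p = 0.0102), or 0.46 after rescaling (adjusted p = 0.0246). In WT LCs the difference was 0.77 (standard error 0.25, adjusted p = 0.0526), or 0.69 after rescaling (adjusted p = 0.0856). It was 1.01 with an adjusted p of 0.0241 without WT 24 h replicate 2. In the other fits that left out 1 library and kept Itgb4 past the filter, the adjusted p ran from 0.110 to 0.121. With the replicate number as a block it was 0.0608. The WT difference also passed with a pseudocount of 0.1 (adjusted p = 0.0431) or 0.5 (adjusted p = 0.0473) and in 1 fit over all 12 libraries (adjusted p = 0.00927), but not without the filter (adjusted p = 0.105). In both genotypes Itgb4 passed the filter on low values through its 24 h libraries, and in β8ITG-cKO LCs the adjusted p without the filter was 0.0106. As a share of the Itga6 level, Itgb4 was 0.337% to 0.645% in the 0 h libraries and 0.636% to 4.003% at 24 h, so that transcripts of its α partner were in large excess in all 12 libraries. Exons of the noncoding gene B230344G16Rik on the opposite strand cover 7.66% of the exonic bases of Itgb4, and that gene was at 0.286 FPKM or less in every library.

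Itga5 had the largest change with time of the 9 genes in both genotypes on the log2(FPKM + 1) scale, although in β8ITG-cKO LCs the ratio of means was higher for Itga4, a gene of low FPKM, at 8.52. It encodes α5, which forms the main fibronectin receptor with β1, and lies on chromosome 15 (103344286 to 103366791, minus strand). Its levels were 4.66, 3.16 and 4.90 FPKM in WT 0 h, 33.2, 74.4 and 29.5 in WT 24 h, 2.93, 3.496 and 3.22 in β8ITG-cKO 0 h and 19.2, 15.8 and 15.9 FPKM in β8ITG-cKO 24 h libraries. Each 24 h library was above all the 0 h libraries, and the 3 WT 24 h libraries were above the 3 β8ITG-cKO 24 h libraries, with WT replicate 2 far above the rest. In WT LCs the rise was 3.05 (standard error 0.34, adjusted p = 0.000993), a ratio of means of 10.8, and 97 of the 15146 genes tested rose by more. In β8ITG-cKO LCs the rise was 2.09 (standard error 0.12, adjusted p = 1.65e-05), a ratio of 5.29, and 290 of 15237 genes rose by more. Both met the size criteria, and after rescaling they were 2.81 and 1.83. Leaving out 1 library at a time gave 2.64 to 3.29 in WT and 2.00 to 2.14 in β8ITG-cKO LCs, past the test in every fit.

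Itga9 encodes α9, a receptor for tenascin, osteopontin and VCAM-1, on chromosome 9 (118606709 to 118901003, plus strand). Its levels were 0.713, 1.018 and 0.656 FPKM in WT 0 h, 0.998, 1.54 and 1.24 in WT 24 h, 0.475, 0.498 and 0.387 in β8ITG-cKO 0 h and 0.699, 0.580 and 0.904 FPKM in β8ITG-cKO 24 h libraries. At each time every β8ITG-cKO library was below every WT library, and with time the ranges met in WT but not in β8ITG-cKO. None of these differences passed the test: with time they were 0.33 in WT (adjusted p = 0.205) and 0.25 in β8ITG-cKO (adjusted p = 0.180), and between genotypes -0.30 at 0 h (adjusted p = 0.289) and -0.39 at 24 h (adjusted p = 0.247).

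Itga4 was near the floor of the measurement except in 1 group. It encodes α4, which binds VCAM-1 and fibronectin and is best known from leukocytes, and lies on chromosome 2 (79255426 to 79333123 in GENCODE, plus strand). Its levels were 0.127, 0.399 and 0.0968 FPKM in WT 0 h, 0.352, 0.380 and 0.183 in WT 24 h, 0.130, 0.205 and 0.0391 in β8ITG-cKO 0 h and 0.856, 1.03 and 1.31 FPKM in β8ITG-cKO 24 h libraries. The 3 β8ITG-cKO 24 h libraries were above all 9 others. The rise with time in β8ITG-cKO LCs was 0.87 (standard error 0.15, adjusted p = 0.00227), or 0.77 after rescaling (adjusted p = 0.00379), and it does not meet the size criteria. It passed the filter on low values through the 24 h libraries, and the adjusted p without the filter was 0.00423. In WT LCs it was under the filter, and without that filter the difference was 0.12 (adjusted p = 0.557).

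Other values moved with Itga4 in part. Exons of Cerkl, a gene of the opposite strand expressed in retina, cover 8.04% of the exonic bases of Itga4, and whether strand was used in the authors' counting is not given in the sources used here, so reads of the 2 genes in the overlap cannot be told apart. Cerkl was at 0.805, 2.29 and 0.201 FPKM in WT 0 h, 0.319, 2.69 and 1.59 in WT 24 h, 0.622, 0.392 and 0.398 in β8ITG-cKO 0 h and 5.41, 6.34 and 7.38 FPKM in β8ITG-cKO 24 h libraries. The same 3 libraries were thus high for Itga4 and Cerkl, and within the WT 0 h group replicate 2 was the highest for Itga4, Cerkl and the retina markers. Other libraries did not follow this. That WT 0 h replicate 2 had the highest retina sum of all, 1069 FPKM, with Itga4 at only 0.399 FPKM. Within β8ITG-cKO 0 h, replicate 2 was the highest for Itga4 and the lowest for Cerkl and the retina markers. Within WT 24 h, Itga4 was lowest in replicate 3, with Cerkl at 1.59 FPKM, and Cerkl was lowest in replicate 1. The 6 markers of blood vessel endothelium summed to 5.64 to 7.71 FPKM in β8ITG-cKO 24 h libraries and to 0.677 to 4.28 FPKM in the other 9. Leukocyte markers summed to 46.6 to 80.8 FPKM in β8ITG-cKO 24 h and 75.2 to 105 FPKM in WT 24 h libraries. The gap was widest for S100a8, S100a9 and Csf3r, with means of 13.9, 24.7 and 9.29 FPKM in WT 24 h. In β8ITG-cKO 24 h these were 4.33, 10.5 and 6.22 FPKM. The β8ITG-cKO 24 h mean was slightly higher for Tyrobp (5.98 against 5.62 FPKM) and Lyz2 (16.8 against 15.5 FPKM), and Cd3e was near the floor in both. The part of these cells and of Cerkl in the Itga4 level was not tested.

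**Figure D2:**
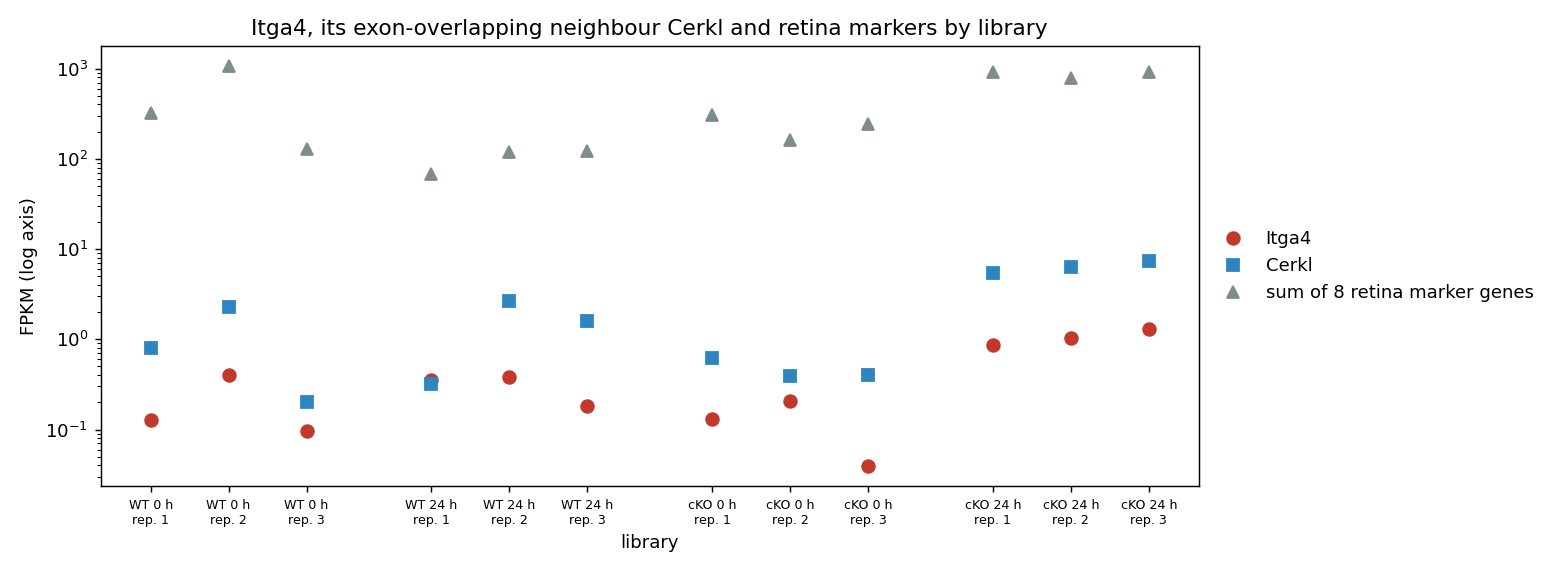
FPKM on a log axis of Itga4 (circles), of Cerkl, whose exons overlap it on the other strand (squares), and of the sum of 8 retina marker genes (triangles) in each of the 12 libraries; cKO stands for β8ITG-cKO. The 3 β8ITG-cKO 24 h libraries hold the highest values of Itga4 (0.856 to 1.31 FPKM) and of Cerkl (5.41 to 7.38 FPKM).

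The collagen-binding subunits were low in all libraries, and only in 1 of 5 fits did one of them pass the filter. Itga1 and Itga2, encoding α1 and α2, lie next to each other on chromosome 13 (114958079 to 115101964 and 114835912 to 114932041, both minus strand). Itga1 was at 0.331, 0.329 and 0.328 FPKM in WT 0 h, 0.288, 0.113 and 0.251 in WT 24 h, 0.388, 0.515 and 0.325 in β8ITG-cKO 0 h and 0.327, 0.313 and 0.563 FPKM in β8ITG-cKO 24 h libraries. It was the one gene of the 9 whose WT 24 h libraries all lay below the WT 0 h libraries, by a difference of -0.13 in the fit without the filter (adjusted p = 0.332). Itga2 was at 0.279, 0.309 and 0.192 FPKM in WT 0 h, 0.674, 0.416 and 0.974 in WT 24 h, 0.274, 0.764 and 0.383 in β8ITG-cKO 0 h and 0.607, 0.405 and 0.503 FPKM in β8ITG-cKO 24 h libraries. The WT 24 h libraries were above the WT 0 h libraries, with a difference of 0.41 in the fit without the filter (adjusted p = 0.134), and the β8ITG-cKO ranges overlapped. Itga11, on chromosome 9 (62677855 to 62783979, plus strand), encodes α11, the collagen receptor of fibroblasts and myofibroblasts. It was at 0.0557, 0.0894 and 0.136 FPKM in WT 0 h, 0.351, 0.164 and 0.150 in WT 24 h, 0.0727 and 0.123 FPKM and listed at 0 in β8ITG-cKO 0 h, and 0.199, 0.191 and 0.224 FPKM in β8ITG-cKO 24 h libraries. The 24 h libraries were above the 0 h libraries in both genotypes, and the differences without the filter were 0.16 (adjusted p = 0.250) and 0.18 (adjusted p = 0.0510). Exons of the predicted gene Gm49395 cover 3.68% of the exonic bases of Itga1 on the same strand.

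Counted over the 9 genes, 5 passed the filter in WT LCs with time, and 2 of them rose (Itga5 and Itga3), where 20.9% of all genes tested rose and 8.81% fell. None of the 9 fell. In β8ITG-cKO LCs 6 passed the filter and 3 rose (Itga5, Itga4 and Itgb4), where 35.4% of all genes tested rose and 10.7% fell. Itga4 and Itgb4 entered this count through their 24 h libraries, where they were high, so that nothing is read from the count. Itga5 alone met the size criteria as higher in each genotype, as did 10.3% and 11.3% of all genes tested. Full separation, with all 24 h above all 0 h libraries, held for 5 of the 9 genes in WT (Itga2, Itga3, Itga5, Itga11 and Itgb4) and for 5 in β8ITG-cKO (Itga4, Itga5, Itga9, Itga11 and Itgb4), as it did for 31.3% and 42.9% of all genes tested. The reverse held for Itga1 in WT and for 15.6% of all genes tested. The counts of separated groups include genes under the filter.

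**Figure D3:**
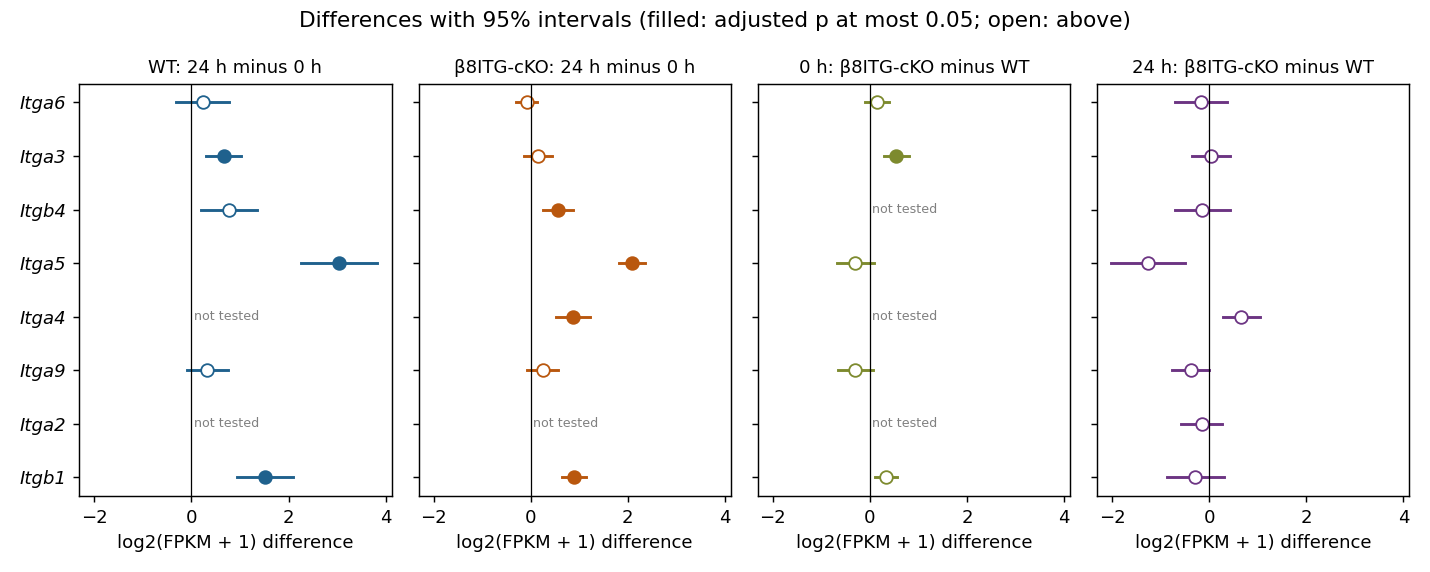
Differences on the log2(FPKM + 1) scale with 95% intervals for Itgb1 and those of the 9 genes that passed the filter on low values in at least 1 comparison; filled points passed the test, and the panels share an axis. Itga5 rose most with time, by 3.05 in WT and 2.09 in β8ITG-cKO LCs, and the interval of its genotype difference at 24 h was -2.02 to -0.50.

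The comparison of genotypes asked whether LCs without β8 differ in these receptors. At 0 h, Itga3 was 0.54 higher in LCs of the β8ITG-cKO (standard error 0.11, adjusted p = 0.0319), a ratio of means of 1.48, and all 3 β8ITG-cKO libraries were above all 3 WT libraries, as for 18.0% of all genes tested; for Itga9 they were all below, as for 12.8%. Itga3 was the only one of 4 genes past the filter to pass the test, where 4.18% of all genes tested were higher and 2.75% lower. The adjusted p was 0.0595 after rescaling, 0.0996 with the replicate number as a block, and above 0.05 in 5 of 6 fits that left out 1 library, ranging from 0.0468 to 0.134. Those 5 were the fits without WT 0 h replicate 1, 2 or 3 and without β8ITG-cKO 0 h replicate 2 or 3. Itga6 differed by 0.15 (95% interval -0.10 to 0.40, adjusted p = 0.441) and Itga5 by -0.30 (-0.68 to 0.07, adjusted p = 0.306).

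At 24 h, 7 of the 9 genes passed the filter and none passed the test in limma-trend, where 5.64% of all genes tested were higher and 0.644% lower in β8ITG-cKO LCs. At an unadjusted p of at most 0.05 there were 2, Itga5 and Itga4, as there were 3137 among all 15366 genes tested. Itga5 was 1.26 lower on the log2 scale (difference -1.26, standard error 0.33, adjusted p = 0.0692), with a ratio of means of 0.372, and only 93 of 15366 genes had a more negative difference. Its adjusted p was 0.0467 after rescaling, 0.0137 in 1 fit over all 12 libraries, 0.0979 with the replicate number as a block, 0.0330 without WT 24 h replicate 2, where the difference was -0.85, and 0.0435 without WT 24 h replicate 3, where it was -1.50. In the other 4 fits that left out 1 library the adjusted p ran from 0.0770 to 0.206, and without the filter on low values it was 0.155. Itga4 was 0.66 higher (95% interval 0.28 to 1.04, adjusted p = 0.0603), or with an adjusted p of 0.0171 in 1 fit over all libraries. It passed the filter here through the β8ITG-cKO libraries, and without the filter the adjusted p was 0.0709. The intervals of the others were -0.36 to 0.42 for Itga3, -0.70 to 0.37 for Itga6, -0.70 to 0.42 for Itgb4, -0.57 to 0.26 for Itga2 and -0.77 to 0.00 for Itga9. The groups did not overlap for 4 of the 9 genes, with β8ITG-cKO higher for Itga1 and Itga4 and lower for Itga5 and Itga9, as for 26.5% of all genes tested in either direction.

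Whether the change with time differed between the genotypes was asked with an interaction term in a fit over the 12 libraries. None of the 5 genes that passed the filter passed this test in limma-trend, where 6.83% of all genes tested were positive and 2.56% negative. At an unadjusted p of at most 0.05 there were 2, Itga5 and Itga3, as there were 3695 among all 15262 genes tested. The interaction was -0.96 for Itga5 (95% interval -1.81 to -0.10, adjusted p = 0.157) and -0.51 for Itga3 (-0.95 to -0.08, adjusted p = 0.137), both negative. Without WT 24 h replicate 2 the Itga5 value was -0.55 (adjusted p = 0.162), and over all fits that left out 1 library it ran from -1.20 to -0.55, with none past the test. For Itga6 it was -0.31 (adjusted p = 0.514), for Itgb4 -0.20 (adjusted p = 0.721) and for Itga9 -0.08 (adjusted p = 0.848). Without WT 24 h replicate 3 the values were -0.63 for Itga3 (adjusted p = 0.0494) and -0.58 for Itga6 (adjusted p = 0.0285). Itga4 could be fitted without the filter on low values, where its interaction was 0.75 (adjusted p = 0.0413), a larger rise in β8ITG-cKO LCs. These comparisons share libraries, so that the values at 0 h and 24 h above enter the interaction again.

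The make-up of the α transcripts, free of the scaling of a library, was followed as the share of each ligand class in the summed FPKM of the 8 α subunit genes. The laminin class (Itga3 and Itga6) held 93.3%, 93.3% and 93.0% in WT 0 h, 78.1%, 60.7% and 70.9% in WT 24 h, 95.6%, 95.1% and 95.6% in β8ITG-cKO 0 h and 80.7%, 85.3% and 83.8% in β8ITG-cKO 24 h libraries. The fibronectin, VCAM-1 and tenascin class (Itga4, Itga5 and Itga9) held 5.98%, 5.76% and 6.23% in WT 0 h, 21.1%, 38.9% and 27.9% in WT 24 h, 3.69%, 3.72% and 3.54% in β8ITG-cKO 0 h and 18.3%, 13.96% and 15.2% in β8ITG-cKO 24 h libraries. No 2 of the 4 groups overlapped in either share. Most of the second class was Itga5, which alone held 28.3% ± 8.94 (SD, n = 3) in WT 24 h and 14.3% ± 2.29 (SD, n = 3) in β8ITG-cKO 24 h libraries. The collagen class (Itga1, Itga2 and Itga11) held 0.353% to 1.24% of the sum in the 12 libraries, with group means from 0.787% to 0.934%.

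With 3 libraries against 3, an exact two-sided permutation test cannot go below 0.1, and it gave 0.1 for the laminin share and for the fibronectin class in each of the 4 comparisons of 2 groups (adjusted p = 0.15 over 12 tests). Permuting the times within each genotype, the mean change with time was -17.8 percentage points for the laminin class and 17.7 for the fibronectin class (exact permutation p = 0.005 each, the smallest that these 400 arrangements can give, adjusted p = 0.0075 over 3 shares), and 0.024 for the collagen class (exact permutation p = 0.91). The collagen class held only 0.353% to 1.24% of the sum, so the laminin and fibronectin shares are near mirror images. Their tests are therefore not separate results, and most of the fibronectin class was Itga5, whose rise was tested above. A smaller laminin share is not a lower level. Mean FPKM of Itga3 and Itga6 went from 23.7 and 57.8 to 38.4 and 70.1 in WT LCs. In β8ITG-cKO LCs they went from 35.0 and 64.1 to 39.1 and 60.4. The genotype difference at 24 h was 13.4 percentage points for the laminin class and -13.49 points for the fibronectin class (β8ITG-cKO minus WT), and at 0 h it was 2.23 and -2.34 points.

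**Figure D4:**
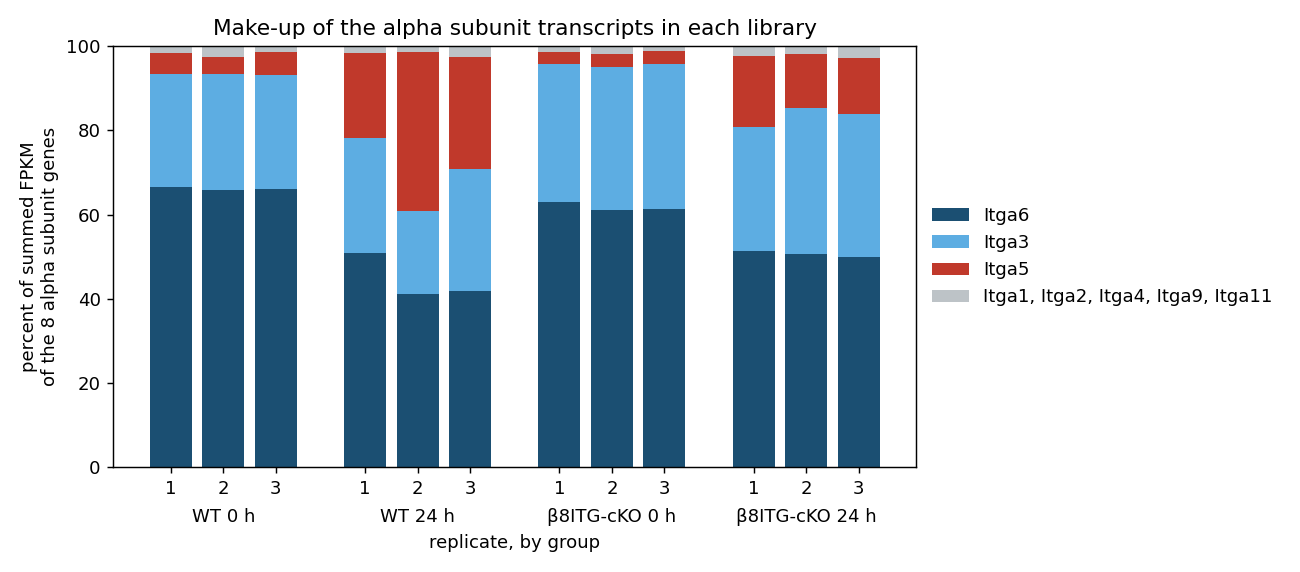
Percent of the summed FPKM of the 8 α subunit genes in each library (stacked bars, replicates 1 to 3 of each group), by gene. Itga5 grows from 3.06% to 5.40% of the sum in the 0 h libraries to 12.7% to 37.9% at 24 h, and Itga6 and Itga3 together take up less.

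The laminin class as defined leaves out Itga7, another laminin receptor subunit, which pairs with β1 and is best known from muscle. Itga7 rose from 2.197 ± 0.946 to 62.0 ± 19.0 FPKM in WT (log2 difference 4.29, adjusted p = 0.000146) and from 3.39 ± 0.0754 to 57.7 ± 2.25 FPKM in β8ITG-cKO LCs (SD, n = 3 each; 3.74, adjusted p = 7.84e-07). Counted over all integrin α subunits measured, with Itga7 in the class, the laminin-binding share was 69.8% ± 0.786 in WT 0 h, 57.4% ± 5.93 in WT 24 h, 72.6% ± 0.336 in β8ITG-cKO 0 h and 65.6% ± 2.39 in β8ITG-cKO 24 h libraries (SD, n = 3). In this count, chosen after the data were seen, which has another denominator, the share moved less with time than among the 8 subunits alone, with no overlap between the 0 h and 24 h libraries of a genotype.

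Itgb1, the β subunit shared by all 8 α subunits, was at 41.1, 39.4 and 41.2 FPKM in WT 0 h, 142, 147 and 77.7 in WT 24 h, 47.1, 54.4 and 53.2 in β8ITG-cKO 0 h and 88.6, 105 and 97.1 FPKM in β8ITG-cKO 24 h libraries. WT 24 h replicate 3, the lowest for Itga6, was also the lowest of the 24 h libraries for Itgb1. Itgb1 rose by 1.51 in WT (standard error 0.25, adjusted p = 0.00424) and by 0.90 in β8ITG-cKO LCs (standard error 0.10, adjusted p = 0.000401). It did not pass the test between genotypes at 24 h (-0.28, 95% interval -0.87 to 0.31, adjusted p = 0.583), at 0 h (0.34, adjusted p = 0.0856) or in the interaction (-0.62, adjusted p = 0.208). The summed FPKM of the 8 α subunits per FPKM of Itgb1 was 1.94 to 2.24 in the 0 h libraries and 1.15 to 1.43 in the 24 h libraries, with no overlap. This sum does not hold all partners of β1. It leaves out Itga7, whose mean went from 2.197 to 62.0 FPKM in WT and from 3.39 to 57.7 FPKM in β8ITG-cKO LCs. Among all 18 other integrin subunit genes, 8 passed the filter in each genotype with time, 6 rose in WT (20.9% of all genes tested rose and 8.81% fell) and 6 rose and 1 fell in β8ITG-cKO LCs (35.4% and 10.7%). The largest rises, beside Itga7, were those of Itgam (3.09 and 2.50) and Itgb2 (2.35 and 2.202), which form a leukocyte integrin, and Itgb5, which pairs with αV, fell by 1.117 in β8ITG-cKO LCs, against a difference of -0.53 in WT that did not pass (adjusted p = 0.0623). At 0 h Itgb5 was 0.52 higher in β8ITG-cKO than in WT LCs (adjusted p = 0.0335).

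The ligands of these receptors moved in both directions. Of 27 ligand genes, 22 passed the filter in WT with time, where 10 rose and 4 fell (20.9% and 8.81% of all genes tested), with a median of 0.51 against 0.16 for all genes. In β8ITG-cKO, 21 passed, 8 rose and 6 fell (35.4% and 10.7% of all genes tested), with a median of 0.22 against 0.23 for all genes. Tnc, encoding tenascin-C, a ligand of α9, rose by 6.07 in WT and 5.83 in β8ITG-cKO LCs, and Vcam1, which α4 and α9 bind, by 3.72 and 4.14. In WT the second largest rise was that of Fn1, encoding fibronectin, from 2.75 ± 0.584 to 112 ± 67.0 FPKM (SD, n = 3 each; 4.73, adjusted p = 0.000511), and in β8ITG-cKO it was that of Spp1, encoding osteopontin (4.50, adjusted p = 2.22e-06). Fn1 also rose in β8ITG-cKO LCs (3.57, adjusted p = 5.20e-06) and Spp1 in WT (3.65, adjusted p = 0.000656). The largest falls were in basement membrane genes in both genotypes, namely Col4a2 (fell by 1.41 and 1.95), Col4a1 (by 1.08 and 1.66) and Lama3, a laminin chain gene (by 0.83 and 2.30).

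Ligand genes also differed between genotypes. At 0 h 4 of 20 ligand genes tested were higher in the β8ITG-cKO and none lower, where 4.18% of all genes tested were higher and 2.75% lower. Among them were Col6a3, encoding a collagen VI chain (1.31, adjusted p = 0.0184), and Lamb1, encoding the laminin β1 chain (1.001, adjusted p = 0.0134). The interaction was negative for Lama3 (-1.47, adjusted p = 0.0348) and Lamb1 (-0.92, adjusted p = 0.0397), among 22 ligand genes tested, where 2.56% of all genes tested were negative and 6.83% positive. Of the 6 corneal epithelium markers, Aldh3a1 made up nearly all of the sum, with means of 240 FPKM in WT 0 h, 274 in WT 24 h, 734 in β8ITG-cKO 0 h and 157 FPKM in β8ITG-cKO 24 h libraries. At 0 h the β8ITG-cKO mean was also higher for Krt14 (0.230 against 0.0312 FPKM in WT) and Krt15 (5.85 against 3.72 FPKM). It was lower for Krt12 (0.103 against 0.488), Krt5 (0.277 against 1.39) and Trp63 (0.0372 against 0.0642 FPKM). Krt14, Krt12 and Trp63 were near the floor, and the WT mean of Krt12 rested on replicate 1, at 1.27 FPKM. The part of corneal cells was not tested.

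The partners of the laminin receptors in hemidesmosomes and tetraspanin webs were 7 genes, of which 6 passed the filter. With time 5 rose in WT, where 20.9% of all genes tested rose, and 4 in β8ITG-cKO LCs, where 35.4% rose, and none fell. Plec, encoding plectin, which links β4 to keratin, rose from 110 ± 13.98 to 365 ± 5.93 FPKM in WT (1.73, adjusted p = 0.000512) and from 134 ± 21.3 to 269 ± 5.77 FPKM in β8ITG-cKO LCs (SD, n = 3 each; 1.018, adjusted p = 0.000617). The tetraspanin gene Cd9 rose in both genotypes (1.35 and 0.67), as did Cd82 (0.997 and 1.15) and Cd151, the tetraspanin that binds α3 and α6 most tightly (1.22 and 0.42). The interaction was negative for Cd151 (-0.79, adjusted p = 0.00745), Plec (-0.71, adjusted p = 0.0413) and Cd9 (-0.68, adjusted p = 0.0299), a smaller rise in β8ITG-cKO LCs for all 3. Over all genes tested it was negative for 2.56% and positive for 6.83%. At 0 h Cd151 was also 0.56 higher in the β8ITG-cKO (adjusted p = 0.0211), and none of the 6 passed the test between genotypes at 24 h.

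Of 20 genes for integrin activation and adhesion signalling, 18 passed the filter in WT with time and 10 rose (20.9% of all genes tested), and 19 passed in β8ITG-cKO, where 14 rose and 2 fell (35.4% and 10.7% of all genes tested). Vcl, encoding vinculin, rose by 2.35 in WT and 1.99 in β8ITG-cKO LCs. Ilk and Fermt2, encoding integrin-linked kinase and kindlin-2, which act on the tail of β1, rose by 1.09 and 0.92 in WT and by 0.70 and 0.47 in β8ITG-cKO LCs. Parvb, encoding a parvin that binds integrin-linked kinase, rose by 0.74 in WT and 1.62 in β8ITG-cKO LCs. Kank1 rose by 0.83 in β8ITG-cKO LCs, where Tln2, encoding a talin, fell by 0.77 and Lims2 by 0.56, and none of the 3 passed in WT, with differences of 0.13 for Kank1, -0.48 for Tln2 and 0.11 for Lims2. Bcar1, encoding the focal adhesion adaptor p130Cas, was lower in β8ITG-cKO LCs at 0 h (difference -0.56, adjusted p = 0.0285). No gene of this list passed the test between genotypes at 24 h, and 1 of 19 passed in the interaction (Parvb, 0.88, adjusted p = 0.0399). Over all genes tested, 6.83% were positive and 2.56% negative in the interaction.

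The genes whose levels followed the 3 abundant α subunits most closely were sought over the 12 libraries among 7295 genes averaging 5 FPKM or more. For Itga5 they were Ywhag (Pearson r = 0.991) and S100a10 (r = 0.987), for Itga3 Dcbld2 (r = 0.979) and Phtf1 (r = 0.976), and for Itga6 Dhx30 (r = 0.880) and Cggbp1 (r = 0.862). Ywhag was at a mean of 43.9 FPKM in WT 0 h, 149 in WT 24 h, 42.0 in β8ITG-cKO 0 h and 98.2 FPKM in β8ITG-cKO 24 h libraries. These are the largest of many correlations over libraries that fall into 4 groups, and are given as descriptions.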

How the data were processed

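RNA of 12 libraries was sequenced as read pairs from stranded total RNA. Per the labels, the submitters' processing notes name FastQC, cutadapt 1.12, TopHat2 2.1.0 and Cuffdiff 2.2.1 with mm10 and GRCm38.p5, and the authors deposited FPKM per gene and library in 4 tables, each with a pair of groups. A library shared by 2 tables had identical FPKM in both. The authors' own fold changes and q values in these tables were not used. FPKM are not counts, so limma 3.58.1 in R 4.3.3 was used (limma-trend, eBayes, pseudocount 1), tested on simulated data. Shares were compared by exact permutation in Python 3.11.15 with scipy 1.17.1; pandas 2.3.3, numpy 2.4.6 and matplotlib 3.10.9 made tables and figures. Genes named were the 9 members, Itgb1, the 3 largest changes in each direction of each list among genes past the test (1 ligand gene is not reported here), and the 2 genes most like each member of at least 2 FPKM; Cerkl, B230344G16Rik, Gm49395 and the promoter motifs were added after values were seen. The members and lists were chosen with earlier results of these data known. Alternatives covered pseudocounts of 0.1 and 0.5, the filter (none, or 2 FPKM), rescaling to the same median, the replicate block, 1 fit over all libraries, the size criteria and each library left out.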

Additional observations from a re-analysis of the deposited data

How the results depend on the processing

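The number of the 9 genes past the test was 2 with time in WT, 3 with time in β8ITG-cKO, 0 between genotypes at 24 h, 1 at 0 h and 0 in the interaction. With the size criteria it was 1, 1, 0 and 0 in the 4 comparisons. Rescaled to the same median it was 1 with time in WT, 4 in β8ITG-cKO (with Itga6 lower), 1 at 24 h and 0 at 0 h. With a pseudocount of 0.1 or 0.5 it was 3 with time in WT. With the filter at a mean of 2 FPKM it was 1 with time in β8ITG-cKO, and with no filter 0 at 0 h and 1 in the interaction. In 1 fit over all libraries it was 3 with time in WT and 2 at 24 h. With a library left out it ran from 1 to 3 with time in WT, 2 to 3 in β8ITG-cKO, 0 to 1 at 24 h, 0 to 1 at 0 h and 0 to 2 in the interaction. The replicate block gave 2, 3, 0, 0 and 0 genes in the same order, and over all genes at 0 h 138 higher and 131 lower in place of 615 and 405. The correlation of deviations over 18 same-numbered pairs of libraries ran from -0.249 to 0.0962. Pairs with different numbers were not compared, so these values cannot decide whether replicate numbers pair the libraries. The cause of the changes in these counts was not tested.

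Differences that changed sign were small. Rescaling gave -0.031 for Itga6 with time in WT, -0.14 for Itga3 with time in β8ITG-cKO and -0.038 for Itga3 between genotypes at 24 h. With 1 library left out, Itga3 at 24 h ran from -0.091 (without WT 24 h replicate 3) to 0.14, and was also below 0 without β8ITG-cKO 24 h replicate 2 or 3. Itgb4 ran from -0.38 to 0.079 at 24 h and from -0.44 to 0.020 in the interaction (both above 0 without WT 24 h replicate 3), and Itga9 from -0.17 to 0.0033 in the interaction (above 0 without WT 24 h replicate 2). With all integrin α subunits measured in the denominator, the laminin share was 68.0%, 36.6%, 70.2% and 41.5% in WT 0 h, WT 24 h, β8ITG-cKO 0 h and β8ITG-cKO 24 h, or 69.8%, 57.4%, 72.6% and 65.6% with Itga7 in the class. The fibronectin class was then 4.37%, 15.6%, 2.69% and 7.86%, and the collagen class 0.574% in WT 0 h and 0.466% in β8ITG-cKO 24 h. For the 6 genes with group means of 1.26 FPKM or less, the unknown depth and the pseudocount limit what can be shown.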
